A study of Rattus norvegicus with 12 samples.

Results

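Hox genes and other positional and patterning transcription factor genes were compared between rat cerebellum, spinal cord and sciatic nerve, and between rats given acrylamide and their controls. Members were all genes whose single symbol in the platform annotation belongs to the Hox, Pax, Irx, Lhx, Engrailed, Zic, Sox, Nkx, POU, Dlx, Otx, Meis, Pbx, sine oculis (such as Six5) or Tbx families, with read-through names left out. This gave 94 genes of 14218 gene symbols on the array, carried by 124 of 31099 probe sets. A gene with several probe sets (19 of the 94, with up to 7 each) is shown by its brightest probe set, by mean log2(signal + 16). The rule used family names and mean signal over all arrays, not any difference between groups. The families were, however, chosen with earlier results of these data known.

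The 12 Affymetrix arrays fall into 6 groups of 2: each of the 3 tissues from male Wistar rats given acrylamide, a neurotoxic vinyl monomer, at 30 mg/kg daily by oral gavage, and from rats given vehicle. The vehicle is called saline in one label and solvent in another, and the rats were 25 days old at the start per the sample labels and 3 weeks old per the series text. Tissue was collected after 21 days, and each array was a pool of tissue from 2 rats. The labels give no level of the spinal cord and do not tie the tissues of a pool to the same animals. P-values therefore measure the spread between pools, estimated jointly from all 6 groups. Signals below are linear, in arbitrary units, and 4 values in a row are saline replicates 1 and 2, then acrylamide replicates 1 and 2.

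Marker genes matched the tissue labels, and some arrays stood apart from others of their tissue. The summed signal of 5 cerebellar granule neuron markers was 46208 to 50304 in cerebellum and 2290.3 to 2654 in cord. That of 6 spinal and motor neuron markers was 5516 to 6072 in cord, where 4 of 6 were above the filter signal of 110, against 113 to 306 in cerebellum and 397 to 568 in nerve. That of 5 Schwann cell markers was 77743 to 101157 in nerve, 34995 to 44994 in cord and 2765 to 2925 in cerebellum. All 5 were above the filter signal in cord as in nerve, so the cord arrays carried Schwann cell markers too. Both sciatic nerve arrays numbered 1 carried cerebellar markers: the granule neuron sum was 7135 and 8862 there, against 2503 and 2391 on the nerve arrays numbered 2, and 5 Purkinje cell markers summed to 7762 and 9874 against 1739.9 and 1678. On the arrays numbered 2, most of the granule sum was Etv1 (2054 and 2003), which was also at 1522 to 1760.3 in cord. Most of the Purkinje sum there was Itpr1 (1253 and 1202). Skeletal muscle markers (6 on the array) summed to 34941 on cord saline replicate 1 against 876 to 1177 on the other cord arrays, and to 4846, 577, 1486 and 18918 on the nerve arrays. Array medians lay between 162 and 199. With 2 arrays a group, precision is set by their number.

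Homeodomain, paired, T-box, POU and SRY-related proteins bind DNA and give cells of the embryo their place and lineage. Hox genes lie in clusters named A to D, and their order along a cluster follows the order of their expression domains from hindbrain to tail, so that anterior paralogs reach furthest forward and posterior ones stay caudal. The cerebellum forms in front of the Hox domain, where Engrailed and Otx factors act. Spinal neurons, oligodendrocytes and Schwann cells each keep their own set of such factors in the grown animal.

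To show what lies in front of members whose levels separate the tissues, the 250 bases before the RefSeq start are printed for 4 Hox genes and for En2 (RefSeq, assembly GRCr8, 5′ to 3′ on the gene's strand). Hoxd10, Hoxd8 and Hoxd1 are members of the same cluster, of which Hoxd8 alone was above the filter signal (110, defined below) in nerve as well as in cord. Hoxa9 was called higher in cord than in cerebellum, and En2 the other way. Capitals mark CG dinucleotides. Hoxd10 is at chr3:80001697-80001946 on the plus strand, Hoxd8 at chr3:80014973-80015222 on the plus strand, Hoxd1 at chr3:80072791-80073040 on the plus strand, Hoxa9 at chr4:82657049-82657298 on the minus strand and En2 at chr4:7960794-7961043 on the minus strand.
Hoxd10: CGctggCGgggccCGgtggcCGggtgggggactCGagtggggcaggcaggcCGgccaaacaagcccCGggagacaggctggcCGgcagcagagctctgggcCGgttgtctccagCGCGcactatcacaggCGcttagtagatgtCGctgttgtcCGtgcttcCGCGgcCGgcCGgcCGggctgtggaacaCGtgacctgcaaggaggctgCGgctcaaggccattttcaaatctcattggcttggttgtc
Hoxd8: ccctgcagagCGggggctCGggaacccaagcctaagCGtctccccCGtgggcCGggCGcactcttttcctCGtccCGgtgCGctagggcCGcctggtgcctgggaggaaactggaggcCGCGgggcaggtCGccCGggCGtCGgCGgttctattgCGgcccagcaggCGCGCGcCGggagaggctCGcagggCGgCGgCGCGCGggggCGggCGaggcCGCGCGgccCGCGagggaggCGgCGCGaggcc
Hoxd1: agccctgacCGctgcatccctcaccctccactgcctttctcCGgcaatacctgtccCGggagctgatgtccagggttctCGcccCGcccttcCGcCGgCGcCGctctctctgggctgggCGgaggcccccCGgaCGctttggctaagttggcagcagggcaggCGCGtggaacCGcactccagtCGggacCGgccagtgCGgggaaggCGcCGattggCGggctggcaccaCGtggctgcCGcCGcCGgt
Hoxa9: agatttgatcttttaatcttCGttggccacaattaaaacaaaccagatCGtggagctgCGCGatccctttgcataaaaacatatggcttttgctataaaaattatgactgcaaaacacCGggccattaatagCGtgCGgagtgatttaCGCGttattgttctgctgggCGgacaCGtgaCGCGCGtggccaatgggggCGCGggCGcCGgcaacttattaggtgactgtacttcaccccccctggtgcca
En2: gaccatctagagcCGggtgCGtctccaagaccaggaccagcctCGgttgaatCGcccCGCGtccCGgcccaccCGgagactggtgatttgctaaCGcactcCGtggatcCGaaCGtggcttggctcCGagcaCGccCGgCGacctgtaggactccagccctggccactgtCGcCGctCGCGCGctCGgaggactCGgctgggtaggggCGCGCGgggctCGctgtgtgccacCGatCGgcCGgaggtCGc

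These windows were rich in CG dinucleotides: 21 in Hoxd10, 38 in Hoxd8, 25 in Hoxd1, 18 in Hoxa9 and 31 in En2. Promoters were in hand for 61 of the 94 genes (66 promoters), with a median of 15.5 CG dinucleotides, and the 17 Hox promoters had a median of 20, against 5 over all 33469 promoters of the same length. The homeodomain core TAAT, searched on both strands, was in 47.1% of the Hox promoters and 45.5% of all member promoters, against 57.0% of all promoters. Hoxa9 held it 6 times, and none of the other printed windows held it. The retinoid receptor half-site AGGTCA, on both strands, was in 17.6% of Hox promoters, 7.58% of member promoters and 14.1% of all promoters, and once in the printed Hoxd10 window. The Hox-Pbx site TGATNNAT, which can contain TAAT, was in 11.8%, 4.55% and 7.96%, and in none of the printed windows. A match is a description of these letters only.

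Of the 94 members, 57 had a mean above the filter signal in at least 1 tissue, 14 in all tissues and 37 in none. In cerebellum 27 were above it, in cord 49 and in nerve 34. Differences between tissues were tested with limma over all 31042 probe sets with no filter, each tissue being the mean of its saline and acrylamide groups, and called at an adjusted p under 0.05 with at least a 2-fold difference on log2(signal + 16). Against cerebellum, cord was called higher for 36 members and lower for 10, with 48 not called. Over all probe sets, 9.36% were called higher and 7.43% lower in this comparison, against 38.3% and 10.6% of the members. Against cord, nerve was called higher for 7 members and lower for 29, which is 7.45% and 30.9% of the members beside 7.9% and 11.9% of all probe sets. Against cerebellum, nerve was called higher for 31 members and lower for 19, which is 33% and 20.2% beside 13.3% and 15.8%. In either direction 46, 36 and 50 members were called in these comparisons, where 16.8%, 19.8% and 29.2% of all probe sets were. The median log2 difference of the members was 0.61 for cord minus cerebellum, -0.46 for nerve minus cord and 0.12 for nerve minus cerebellum, beside -0.05, 0.01 and -0.11 over all probe sets. In bulk tissue, fewer cells of a type and less RNA per cell cannot be told apart.

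Hox genes set cord apart from cerebellum. Of 24 Hox members, 21 were above the filter signal somewhere, and all 21 were above it in cord, 12 in nerve and 0 in cerebellum, where the highest single array gave 117 for Hoxb3. Cord was called higher than cerebellum for 22, beside 9.36% of all probe sets. The members not called, Hoxb13 and Hoxd11, were below the filter signal in every tissue. Nerve was called higher than cerebellum for 17 and lower than cord for 12, beside 13.3% and 11.9% of all probe sets. Of the 21, 9 passed the filter signal in cord alone. For 16 of the 24, all 4 cord arrays lay above all 4 nerve arrays and all 4 nerve arrays above all 4 cerebellum arrays, an order that 1.15% of all probe sets showed.

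**Figure D1:**
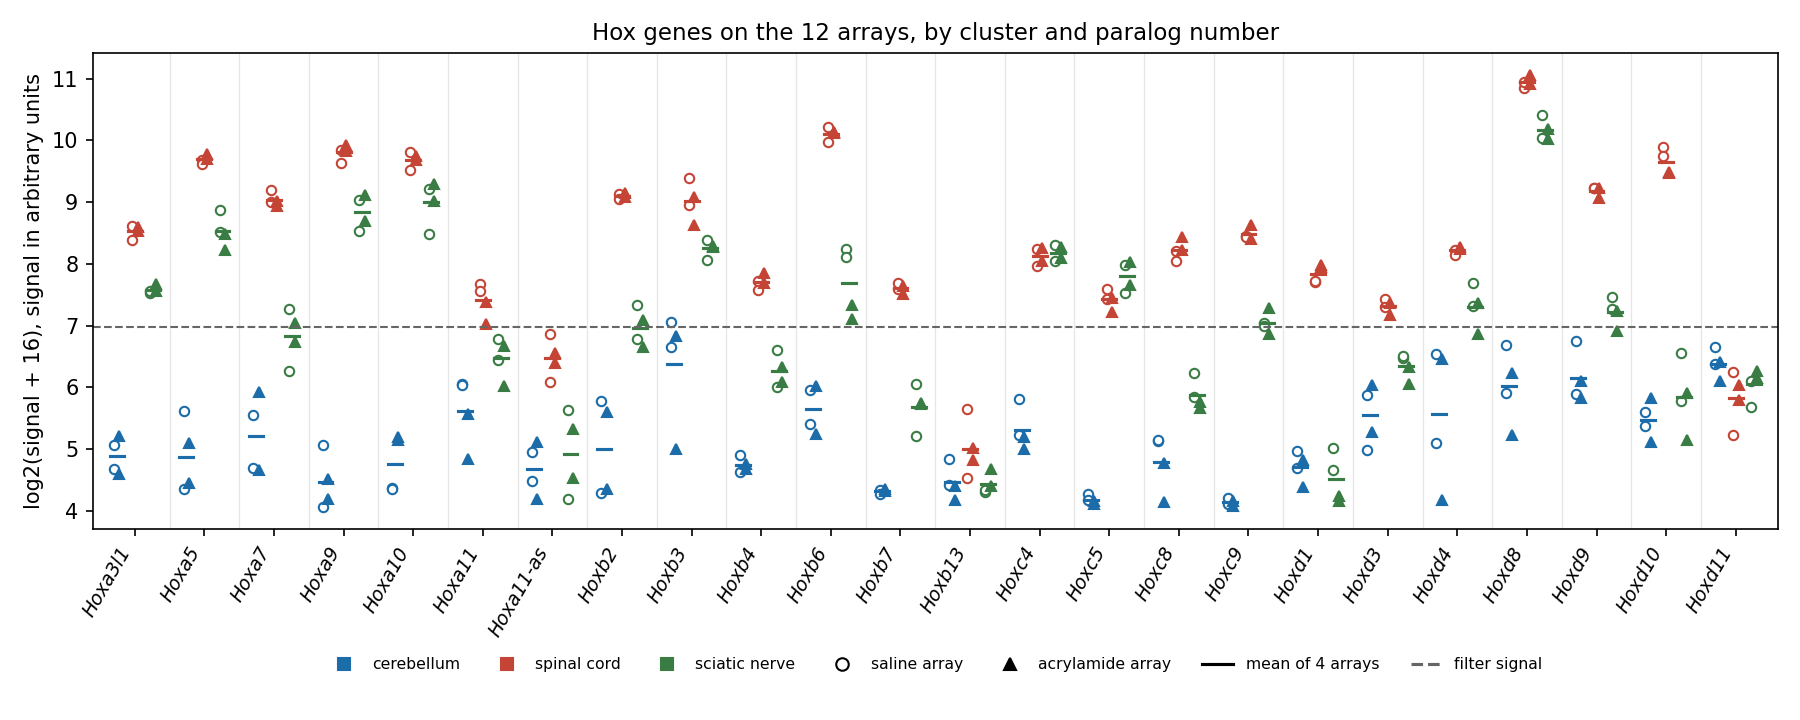
The plot gives log2(signal + 16) of the 24 Hox members on each of the 12 arrays, by tissue and treatment, with the mean of 4 arrays as a bar and the filter signal of 110 as a dashed line. Cord points lie above the line for 21 members by their means, no cerebellum mean does, and nerve means lie between the tissues for most members.

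Hoxd8, a central member of the D cluster, gave 1830.3, 1968, 1915 and 2129.5 in cord, 1041, 1340.3, 1027 and 1145 in nerve, and 86.8, 44.3, 58.8 and 21.6 in cerebellum. The 3 tissues did not overlap. Cord exceeded cerebellum by 4.93 ± 0.22 on the log2 scale (SE, adjusted p = 2.54e-07), at least 17.8-fold when the filter signal stands in for the dim cerebellum. Nerve was 58.1% of cord, and the log2 difference of -0.78 ± 0.22 (adjusted p = 0.0154) was below the 2-fold minimum.

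Hoxd10, a posterior gene known for its part in lumbar motor neurons, gave 932, 844, 693 and 706 in cord and 77.6, 39.1, 44.1 and 19.3 in nerve. Nerve here overlapped cerebellum (32.4, 25.5, 40.4 and 18.6) and lay far below cord, with a log2 difference of -3.81 ± 0.24 (adjusted p = 1.27e-06), at least 7.2-fold. Hoxd1, at the anterior end of the cluster, was also lower in nerve than in cord: cord arrays gave 192, 195, 230 and 237 and nerve arrays 16.4, 9.3, 1.8 and 2.8, a log2 difference of -3.32 ± 0.17 (adjusted p = 3.96e-07), at least 1.9-fold. Where the nerve mean was above the filter signal, nerve signal as a share of cord signal was 23.6% for Hoxd9, 58.1% for Hoxd8 and 51.3% for Hoxd4. Hoxd3, like Hoxd10 and Hoxd1, was below it in nerve, with cord at least 1.3-fold higher, so its share has only an upper limit and these genes have no order among them. This describes the probe sets used, and the differences between genes were not tested.

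In the A cluster, cord was called higher than cerebellum for all 5 protein-coding members with plain names, beside 9.36% of all probe sets. Hoxa9 gave 906, 778, 959.7 and 890.3 in cord, 510.5, 353, 398 and 539 in nerve, and 0.57, 17.4, 2.3 and 6.9 in cerebellum. Cord minus cerebellum was 5.35 ± 0.23 (adjusted p = 1.73e-07), and nerve was 50.9% of cord. Hoxa10 gave 879, 719, 840.5 and 803 in cord and 580.2, 342, 501 and 614 in nerve, with no cerebellum array above 20.4. Hoxa5 gave 809, 773, 819 and 859.5 in cord and 455, 349, 283 and 343 in nerve, and its nerve minus cord difference of -1.17 ± 0.26 was called (adjusted p = 0.00391). The share of cord signal seen in nerve was 62.8% for Hoxa10, 50.9% for Hoxa9 and 43.8% for Hoxa5. Hoxa7 and Hoxa11 were below the filter signal in nerve, with cord at least 4.6-fold and 1.4-fold higher; Hoxa7 was called lower in nerve and Hoxa11 was not. Hoxa3l1, spelled as in the annotation, gave a mean of 355 ± 26.2 (SD, n = 4) in cord and 176 ± 9.2 in nerve. The antisense RNA Hoxa11-as stayed below the filter signal, with 100.2, 51.5, 67.9 and 77.8 in cord, and cannot be told from Hoxa11 where probes do not keep strands apart.

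In the B cluster 4 of 6 members were called lower in nerve than in cord, beside 2 of 5 in A, 2 of 4 in C and 3 of 7 in D. Over all probe sets 11.9% were. The clusters were not tested against each other. Hoxb6 gave 1172, 986, 1113 and 1098 in cord and 286, 259, 121 and 145 in nerve, a difference of -2.42 ± 0.19 (adjusted p = 4.23e-06). Hoxb2, an anterior gene of hindbrain and cord, gave 548, 514, 549 and 528 in cord and 145, 93.7, 119.5 and 85 in nerve. Hoxb4 and Hoxb7 were called lower in nerve, where both were below the filter signal, so that only a bound can be given: cord was at least 1.8-fold and 1.6-fold higher. The other two of the cluster were not called. Hoxb13 was below the filter signal in every tissue. Hoxb3 was at 57% of cord in nerve, with 656, 479, 381 and 524 in cord and 251, 320.2, 294 and 297 in nerve, and its log2 difference was -0.76 (adjusted p = 0.0906).

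Within the C cluster, nerve reached the cord level for 2 anterior and central genes and not for the other two. Hoxc4 gave 234, 285, 289.7 and 249 in cord and 300, 248, 256 and 292 in nerve. Hoxc5 gave 157, 177, 133 and 159 in cord and 236, 169, 185 and 245 in nerve. The groups overlapped for both, and neither difference was called: 0.049 ± 0.17 for Hoxc4 (adjusted p = 0.84) and 0.37 ± 0.17 for Hoxc5 (adjusted p = 0.0951). A second, dimmer Hoxc4 probe set gave -0.69 for nerve minus cord, so the share for this gene depends on the probe set. Hoxc8 and Hoxc9 were lower in nerve than in cord on all arrays, Hoxc8 at least 2.6-fold, with nerve below the filter signal, and Hoxc9 at 34.1% of cord. The log2 differences were -2.35 ± 0.19 (adjusted p = 4.52e-06) and -1.44 ± 0.15 (adjusted p = 3.04e-05). Grouped by paralog, 3 of 7 anterior, 5 of 7 central and 3 of 8 posterior members were called lower in nerve than in cord. Over all probe sets 11.9% were. These paralog groups were not tested against each other.

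Meis and Pbx proteins bind DNA together with Hox proteins. Pbx3 was above the filter signal everywhere and gave 5622, 5878, 6717 and 7445 in cord, against 1979 to 2118 in cerebellum and 1623 to 1869 in nerve. Cord minus cerebellum was 1.62 ± 0.06 (adjusted p = 1.16e-07) and nerve minus cord -1.84 ± 0.06 (adjusted p = 7.97e-08). Meis2 followed the Hox order, with 783, 661, 702 and 726 in cord, 185, 131, 153 and 185 in nerve, and no cerebellum array above 61.4. Meis1 went the other way, with 1902, 1868, 2147 and 1921 in cerebellum, 884, 854, 948 and 888 in cord, and 449.7, 197, 474 and 237 in nerve. Meis3 and Pbx2 were not called between any tissues, with means of 216 to 261 for Meis3 and 759.6 to 937 for Pbx2. Pbx4 was above the filter signal only in nerve, at 134 ± 26.9 (SD, n = 4), and was called higher there than in cerebellum.

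En2, Otx2, Pax6, Lhx1, Lhx5 and the Zic genes were among the members called higher in cerebellum than in cord. A list of granule and Purkinje neuron factors (En2, Pax6, Zic1, Zic2, Zic4, Lhx1, Lhx5 and Meis1) had 8 of 8 called lower in cord and 8 of 8 called lower in nerve than in cerebellum, beside 7.43% and 15.8% of all probe sets. The list was drawn up with results of these data known, so these counts describe it and support nothing. En2, which patterns the midbrain and cerebellum, gave 3709.6, 3325, 3528 and 3634 in cerebellum and 33.9, 16.4, 33.7 and 33.9 in cord. Cord minus cerebellum was -6.31 ± 0.54 (adjusted p = 1.04e-05), at least 32.3-fold. Pax6, needed by granule cells, gave 2912, 2865, 3006 and 3047 in cerebellum and 289.9, 244, 311 and 288 in cord, a difference of -3.32 ± 0.61 (adjusted p = 0.00145). The standard errors of En2 and Pax6 hold the spread within all 6 groups. That includes nerve, where both genes split by replicate number. Otx2, a factor of the forebrain and midbrain that is also active in choroid plexus, gave 407, 338, 328 and 308 in cerebellum and no more than 1.4 in cord. Choroid plexus markers (3 on the array) summed to 14162 to 18486 in cerebellum and 177 to 251 in cord. Most of the cerebellar sum was Ttr, at 13811 to 18039, and the part of these markers in the Otx2 value was not tested. Its second probe set, below the filter signal everywhere, gave -1.07 for cord minus cerebellum against -4.4 for the one used.

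Zic genes act in granule cell precursors and the dorsal neural tube. Zic1 gave 647, 551, 581 and 504 in cerebellum and 78.1 to 100.2 in cord, Zic2 gave 542, 580.1, 607 and 621 against 146 to 244, and Zic4 gave 911, 895, 1072 and 855 against 119 to 175. None of these groups overlapped, and the log2 differences were -2.51 ± 0.48 for Zic1, -1.59 ± 0.16 for Zic2 and -2.56 ± 0.3 for Zic4, all called. Here too the standard errors include the spread between nerve arrays. Lhx1 and Lhx5, LIM factors of Purkinje cells and spinal interneurons, were at 428 ± 8.5 and 138 ± 19.1 (SD, n = 4) in cerebellum and 42.3 and 42.6 in cord, below the filter signal. The POU gene Pou6f1 was at 979 ± 88.2 in cerebellum, 457 ± 38.3 in cord and 304 ± 50.7 in nerve.

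**Figure D2:**
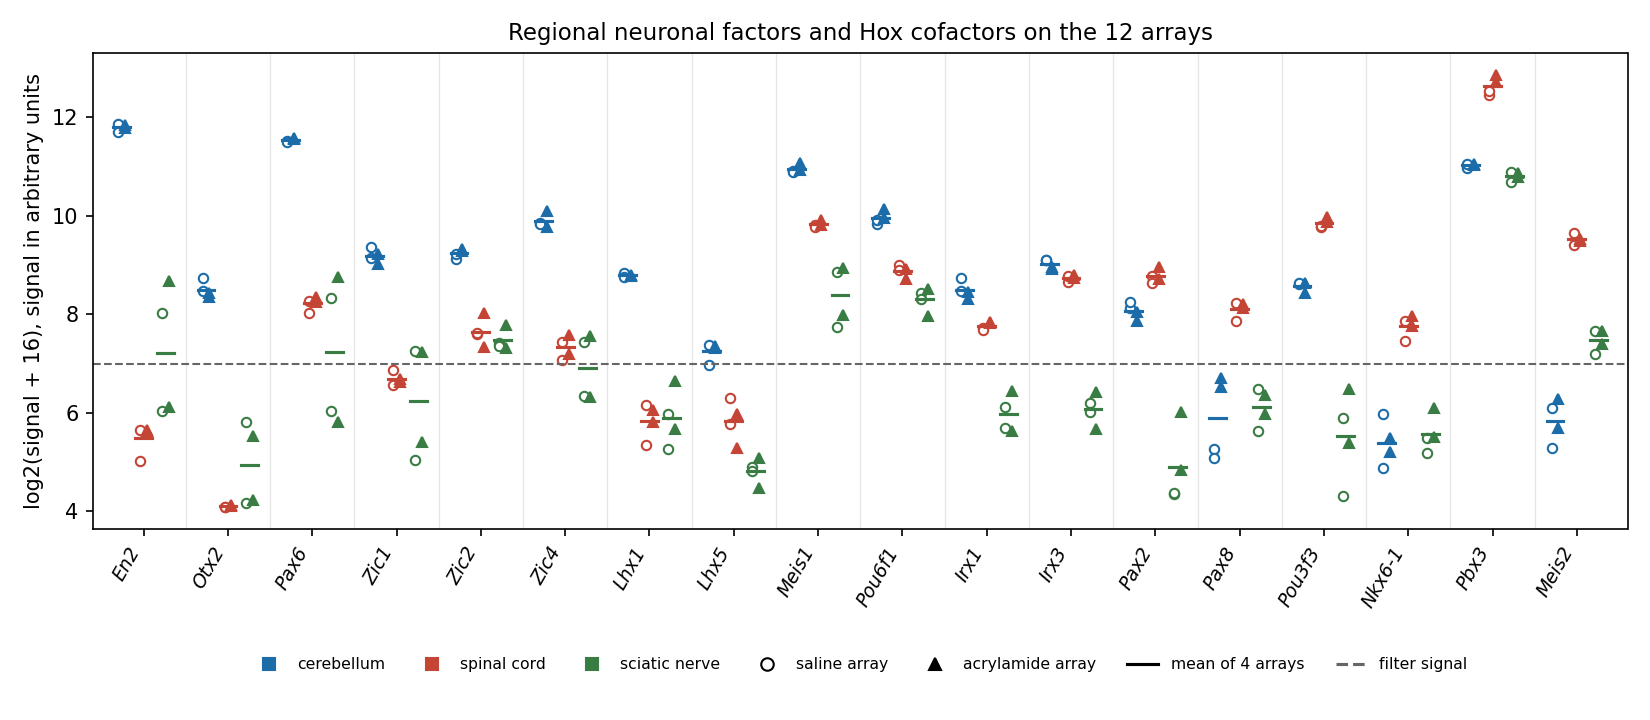
The plot gives log2(signal + 16) of 18 regional neuronal factors and Hox cofactors on each array, by tissue and treatment, with means as bars and the filter signal of 110 dashed. En2 and Otx2 are near 3549 and 345 in cerebellum and near background in cord, and Pax2, Pou3f3 and the Irx genes are low in nerve; nerve points of En2, Pax6, Zic1 and Otx2 split by replicate number.

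The nerve values of these genes depended on the replicate. En2 gave 243, 49.8, 389.6 and 53.6 in nerve, which is 6.8%, 1.4%, 11% and 1.5% of its cerebellar mean. Pax6 gave 307, 49.3, 415 and 40 (10.4%, 1.7%, 14% and 1.4%), Otx2 gave 40, 2, 30.3 and 2.8 (11.6%, 0.59%, 8.8% and 0.81%), and Zic1 gave 136, 17, 135 and 26.2 (23.8%, 3%, 23.7% and 4.6%). Both nerve arrays numbered 1 were thus above both numbered 2, whatever the treatment. Signals below 110, here those of Otx2 and those of the arrays numbered 2, set only an upper limit on these shares. The granule cell receptor subunit Gabra6 did the same, at 9%, 0.89%, 11.9% and 1.3% of its cerebellar mean, as did the Purkinje cell gene Pcp2 at 11.9%, 1.2%, 17.1% and 1.1%. Choroid plexus markers summed to 2704, 395, 3033 and 323, most of it Ttr at 2618, 337, 2918 and 261, the only 1 of the 3 above the filter signal in nerve. Zic2 and Pou6f1 kept 24% to 35.9% of the cerebellar mean on every nerve array.

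**Figure D3:**
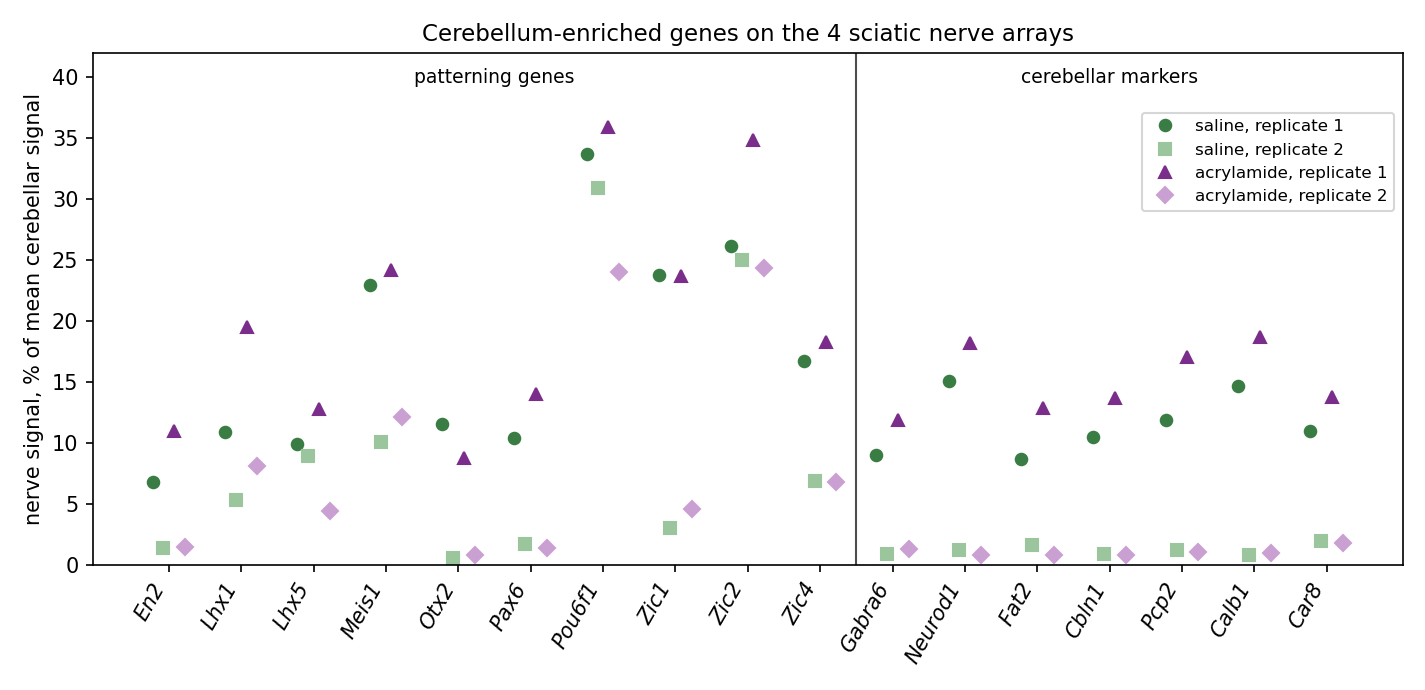
The plot gives the signal on each of the 4 sciatic nerve arrays as a percent of the gene's mean cerebellar signal, for 10 members called higher in cerebellum than in cord and for 7 granule and Purkinje cell markers. Replicates numbered 1 lie above those numbered 2 for every gene shown, from 6.8% to 35.9% against 0.59% to 30.9%.

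En2 was called higher in nerve than in cord with all arrays, at 1.73 ± 0.54 (adjusted p = 0.023). With both nerve arrays numbered 1 left out, the log2 difference was 0.60, under the 2-fold minimum. It also missed the threshold without nerve saline replicate 1 (1.23), without nerve acrylamide replicate 1 (1.09) and without cord saline replicate 2 (1.57) or either cord acrylamide array (1.73). For Pax6 the same step moved nerve minus cord from -0.99, not called, to -2.30, called. Without both arrays, nerve minus cord lost En2, Hoxa11-as and Six5 and gained 9 members (Hoxa11, Hoxd3, Irx5, Pax4, Pax6, Six4, Sox21, Zic1 and Zic4). Nerve minus cerebellum lost Hoxd9, Pou3f4 and Tbx19 and gained Otx1, with 47 of 50 calls kept. The part of cerebellar RNA in any single difference was not tested.

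Of 10 members listed for spinal interneurons and motor neurons, 4 (Pax2, Pax8, Irx3 and Nkx6-1) were above the filter signal in cord and 0 in nerve. The other six (Lhx1, Lhx2, Lhx4, Lhx5, Lhx9 and Pou4f1) had cord means of 5.7 to 54.7. Cord was called higher than cerebellum for 3 (Pax8, Nkx6-1 and Pou4f1) and lower for 2 (Lhx1 and Lhx5), beside 9.36% and 7.43% of all probe sets. Nerve was called lower than cord for 6 and higher for 0, beside 11.9% and 7.9%. Pax2, a factor of inhibitory interneurons in cord and cerebellum, gave 419.8, 383, 406 and 480.3 in cord, 264, 287, 215 and 248 in cerebellum, and 4.2, 4.5, 48.9 and 12.7 in nerve. Pax8 was at 262 ± 30.7 (SD, n = 4) in cord and at 51.1 and 54.7 in cerebellum and nerve. The POU factor Pou3f3 gave 852, 869, 992 and 925 in cord, 331 to 382 in cerebellum and 3.9 to 73.2 in nerve. Its nerve minus cord difference of -4.34 ± 0.32 was called (adjusted p = 3.2e-06).

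Iroquois factors Irx1 and Irx3, which divide the ventral cord and the hindbrain into domains, were shared by both central tissues. Irx3 gave 532, 529.9, 479.9 and 464 in cerebellum, 385, 422, 411 and 430.4 in cord, and 34.5 to 70.1 in nerve. Nerve minus cord was -2.66 ± 0.16 (adjusted p = 7.7e-07), while cord minus cerebellum was not called (adjusted p = 0.186). Irx1 was at 346 ± 46.4 in cerebellum, 202 ± 11.9 in cord and 48.1 ± 17.5 in nerve (SD, n = 4). Nkx6-1, a factor of ventral progenitors and motor neurons, was at 203 ± 31.5 in cord and 27.4 and 32.6 in the other tissues.

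Of 4 oligodendrocyte lineage factors (Nkx2-2, Nkx6-2, Sox10 and Sox6), 3 were called higher in cord than in cerebellum, and 2 were called lower in nerve than in cord, beside 9.36% and 11.9% of all probe sets. Nkx2-2, which acts in oligodendrocyte differentiation, gave 782, 797, 837 and 978 in cord, 361, 303, 319.8 and 384 in cerebellum, and 48.9, 34.3, 57 and 26.2 in nerve. Cord minus cerebellum was 1.27 ± 0.18 (adjusted p = 0.000256) and nerve minus cord -3.94 ± 0.18 (adjusted p = 2.02e-07). Nkx6-2, expressed in myelinating oligodendrocytes, gave 443, 519, 509 and 548 in cord, 83 to 141 in cerebellum and 7.2 to 21.9 in nerve. Summed oligodendrocyte markers (5 on the array) were 56596 to 62126 in cord, 31303 to 36782 in cerebellum and 26497 to 30318 in nerve. The sum was thus higher in cord than in cerebellum, and lower in nerve than in cord. Most of the nerve sum was Mbp, at 21839.9 to 26094, beside 18185 to 19821 in cord. The other markers were lower in nerve than in cord. Mog was at 6203 to 7004 in cord and 13.8 to 286 in nerve, and Opalin at 2102 to 2722 and 15.3 to 119. Mobp was at 21039 to 22623 and 126 to 2621, and Mag at 7919 to 9956 and 2417 to 3683. The part of these markers in the differences was not tested. Sox10, needed by both oligodendrocytes and Schwann cells, gave 247, 277, 276 and 216 in cerebellum, 1317, 1542, 1451 and 1283 in cord, and 1814, 2735, 2408 and 1789 in nerve. The order held on every array, and nerve minus cord was 0.62 ± 0.15 (adjusted p = 0.00613), below the 2-fold minimum. Sox6 was at 187, 339 and 343 in cerebellum, cord and nerve, under the 2-fold minimum in every pair.

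Pou3f1, a POU factor of Schwann cells at the start of myelination, gave 479, 842, 555 and 430.1 in nerve, 156, 332, 189 and 128 in cord, and no more than 18.4 in cerebellum. Nerve minus cord was 1.49 ± 0.28 (adjusted p = 0.00152). On both tissues' saline arrays replicate 2 was the higher. Schwann cell sums on saline replicates 1 and 2 were 80588 and 101157 in nerve and 42457 and 44994 in cord. On the acrylamide arrays Pou3f1 was higher on replicate 1 in both tissues. The sums there were 77743 and 84407 in nerve and 36768 and 34995 in cord. The part of Schwann cells in the Pou3f1 values was not tested. With the saline arrays alone the difference of 1.42 just missed the threshold (adjusted p = 0.0534, from 0.00068 to 0.0534 over all alternatives).

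**Figure D4:**
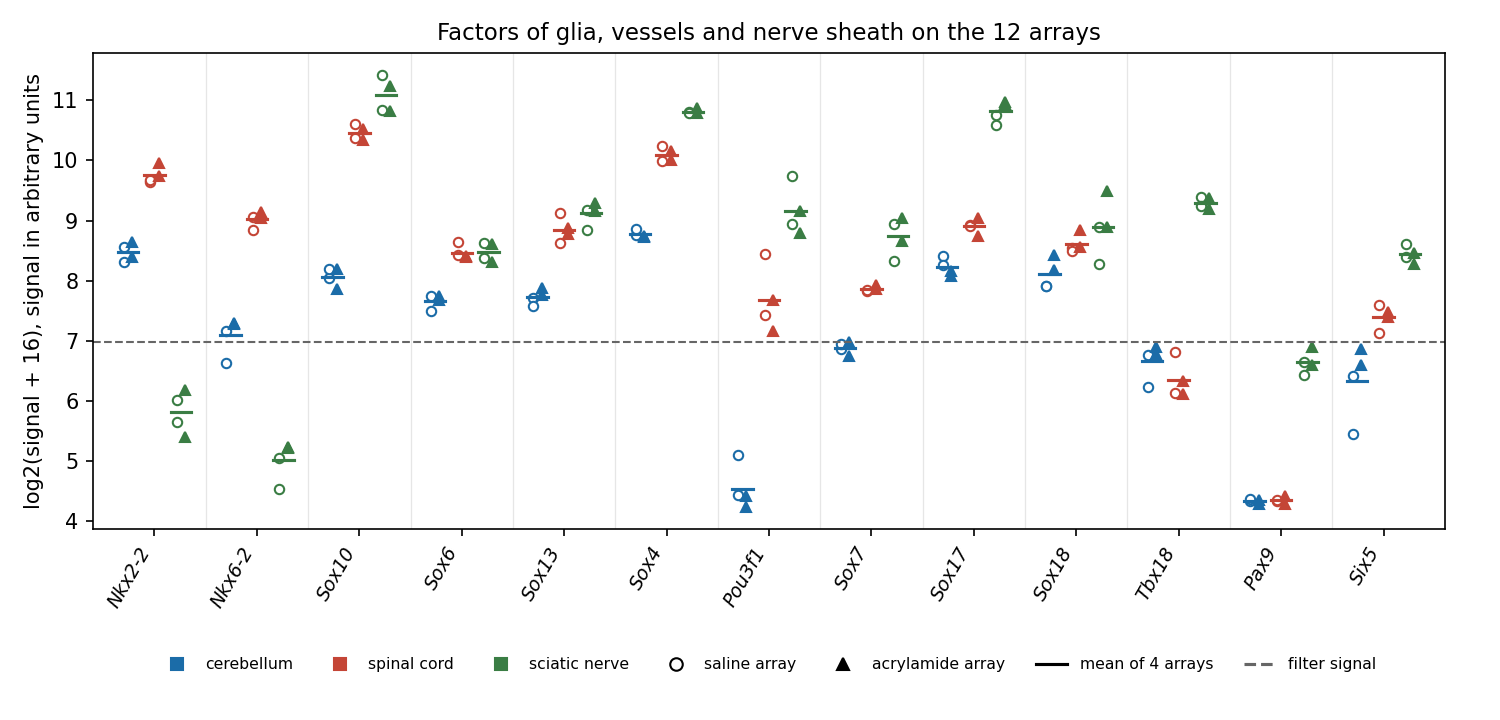
The plot gives log2(signal + 16) of 13 factors of glia, vessels and nerve sheath on each array, by tissue and treatment, with means as bars and the filter signal of 110 dashed. Nkx2-2 and Nkx6-2 are highest in cord and lowest in nerve, Sox10 rises from cerebellum through cord to nerve, and Sox17, Tbx18 and Pax9 stand out in nerve.

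Of 3 endothelial SOX factors, nerve was called higher than cord for 1 and higher than cerebellum for 2, beside 7.9% and 13.3% of all probe sets. Sox17 gave 1530, 1713, 1957 and 2001 in nerve, 410.5 to 511 in cord and 256 to 323 in cerebellum. Nerve minus cord was 1.91 ± 0.08 (adjusted p = 1.93e-07). Sox7 was at 421 ± 93.3 in nerve, 217 ± 7 in cord and 103 ± 8.8 in cerebellum (SD, n = 4), called between nerve and cerebellum. Sox18 gave 457, 294, 462 and 706 in nerve, 343 to 444 in cord and 224 to 329 in cerebellum, and was not called in any tissue pair. Summed endothelial markers (3 on the array) were 5124 to 6515 in nerve, 1809 to 2006 in cord and 1023 to 1108 in cerebellum; their part in the SOX differences was not tested.

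Of 7 members listed for skeletal muscle, limb and mesoderm, nerve was called higher than cord for 2 (Tbx18 and Pax9), lower for 1 (Tbx4) and not called for 4, beside 7.9% higher and 11.9% lower over all probe sets; 2 of the 7 were above the filter signal in any tissue. Tbx18, a T-box factor of pericytes and mesenchyme, gave 654, 588, 572 and 646 in nerve and no more than 104 on any array of the other tissues, with nerve minus cord at 2.95 ± 0.18 (adjusted p = 1.04e-06), at least 5.6-fold. Pax9, a factor of the skeleton's mesenchyme, gave 84.5, 70.3, 81.1 and 104 in nerve and 3.6 to 5.5 elsewhere; these signals are below the filter signal, yet no array overlapped (nerve minus cord 2.3 ± 0.15, adjusted p = 1.59e-06). Six5, which is not on that list, gave 376, 322, 336 and 296 in nerve, 125, 178, 163 and 153 in cord, and 27.8 to 100.1 in cerebellum, with nerve minus cord at 1.03 ± 0.21 (adjusted p = 0.00242). It fell just under the 2-fold minimum without cord saline replicate 1 (0.92), without either nerve array numbered 1 (0.98 and 0.99) or without both (0.94). Tbx4, a hindlimb factor, was below the filter signal everywhere but gave 50.5, 45, 77 and 80.4 in cord against at most 5.6 in the other tissues. Summed fibroblast and sheath markers were 77183 to 91732 in nerve and 17484 to 25889 in cord.

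Other Sox genes were less restricted. Sox4 gave 1775, 1748, 1852 and 1759 in nerve, 1001 to 1191 in cord and 407 to 448 in cerebellum, with cord minus cerebellum at 1.33 ± 0.07 (adjusted p = 6.66e-07). Sox13 was at 545 ± 71.1, 449 ± 68 and 198 ± 18.6 in the same order (SD, n = 4), called higher than cerebellum in both. Pou2f1, a ubiquitous octamer-binding factor, was at 429, 259 and 276 in cerebellum, cord and nerve and was not called. Six4 was at 126 and 125 in cerebellum and cord and 56.8 in nerve. Tbx2 was near the filter signal, at 108 in cord and 116 in nerve. Among the 37 members below the filter signal in every tissue, the highest tissue mean was 105, reached by Dlx1 in nerve and Sox21 in cord. Forebrain and eye factors (Six3, Six6, Otx1 and Dlx1 among them) were all in that group: 0 of 7 listed were above the filter signal anywhere.

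The tissue pattern was also present without acrylamide. With the saline arrays alone, 43 of 46 members called between cord and cerebellum were still called, 28 of 36 between nerve and cord, and 48 of 50 between nerve and cerebellum. Of the calls made with all arrays, 3, 9 and 11 had both tissues below the filter signal.

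Acrylamide was compared with saline in each tissue on probe sets with a tissue mean above the filter signal, with limma at an adjusted p under 0.05. No member was called: 0 of 27 tested in cerebellum, 0 of 49 in cord, 0 of 34 in nerve, 0 of 14 for the average of the tissues and 0 of 14 for a difference between tissues (F test). Over all probe sets tested, 0%, 0%, 0.00553%, 0.0127% and 0% were called. At an unadjusted p under 0.05 the counts were 0, 1, 3, 2 and 1 members, where 2.71%, 2.87%, 5.1%, 5.49% and 2.33% of all probe sets passed. By direction, the member in cord was higher (1.02% of all probe sets were), 2 in nerve were higher and 1 lower (2.73% and 2.37%), and both for the average were higher (2.64%). In cord 32 of 49 members were higher with acrylamide and 17 lower, with a median log2 difference of 0.07 beside 0.004 over all probe sets. In cerebellum 16 were higher and 11 lower (median 0.07), and in nerve 20 and 14 (median 0.05). Both acrylamide arrays lay to one side of both saline arrays for 15 of 27 in cerebellum, 16 of 49 in cord and 6 of 34 in nerve, beside 33.7%, 33.6% and 26.3% of all probe sets. By direction, 8 were higher and 7 lower in cerebellum (17.1% and 16.6% of all probe sets). In cord 13 were higher and 3 lower (17.7% and 15.8%), and in nerve 2 and 4 (13.3% and 13%). The Hox members tested were split, 13 higher and 8 lower in cord and 7 and 5 in nerve.

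**Figure D5:**
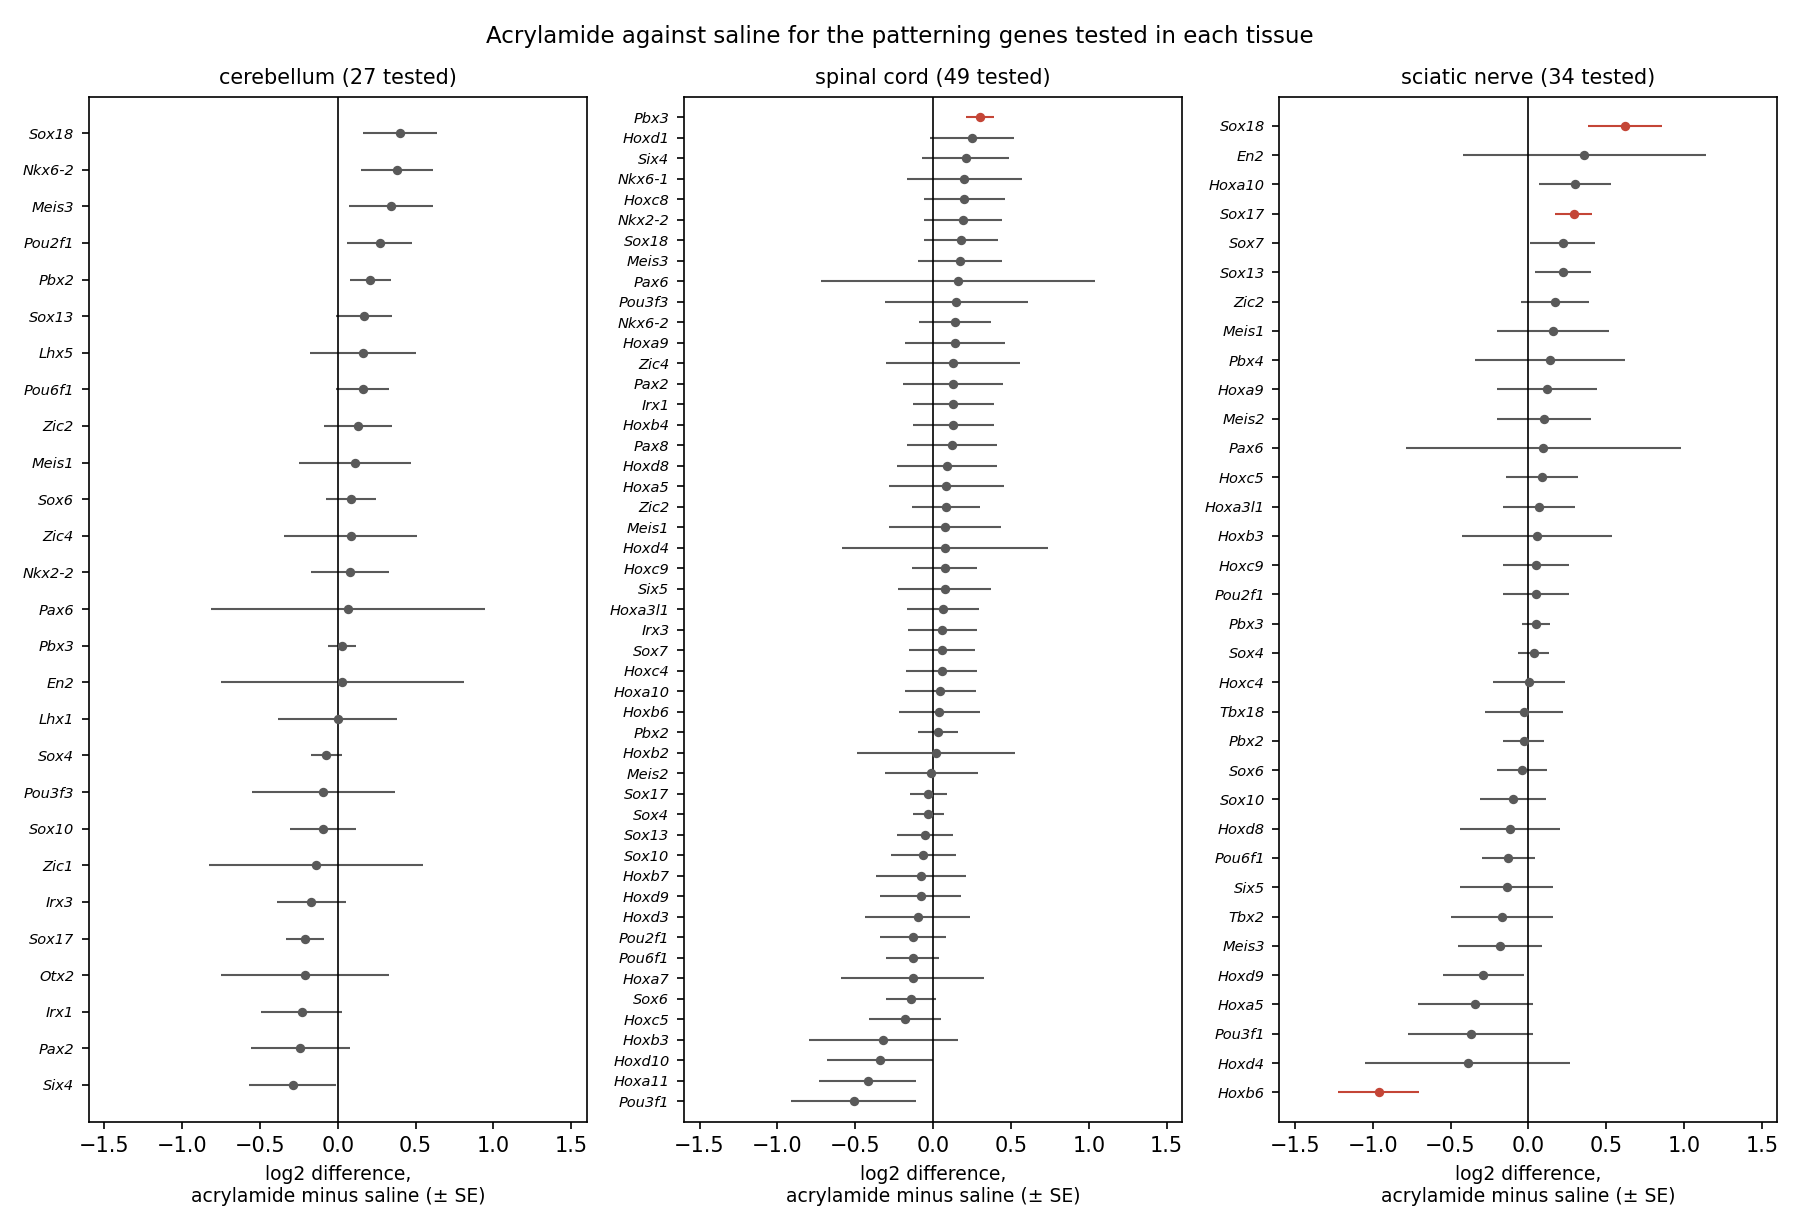
The plot gives the log2 difference, acrylamide minus saline, with its standard error for the 27, 49 and 34 members tested in cerebellum, cord and nerve; red points had an unadjusted p under 0.05. Red are Pbx3 in cord at 0.30 and Sox18, Sox17 and Hoxb6 in nerve at 0.62, 0.29 and -0.96, none of which passed the adjusted threshold.

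Hoxb6 in nerve gave 286 and 259 with saline and 121 and 145 with acrylamide. The groups did not overlap and the log2 difference was -0.96 ± 0.26 (adjusted p = 0.892 with limma); it lay between -1.07 and -0.77 under the alternatives run. In cord the same gene gave 1172 and 986 against 1113 and 1098. Spinal and motor neuron markers in nerve summed to 568 and 462 with saline and 435 and 397 with acrylamide. Only 1 of the 6 was above the filter signal there, Prph, at 440, 364, 327 and 332, which made up most of the sum. The part of these markers in the Hoxb6 value was not tested. Other Hox genes in nerve gave smaller differences, among them Hoxa10 at 0.30 ± 0.23 and Hoxd9 at -0.29 ± 0.26.

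The endothelial factors Sox17 and Sox18 were the other members under that unadjusted threshold in nerve. Sox17 in nerve gave 1530 and 1713 with saline and 1957 and 2001 with acrylamide, a difference of 0.29 ± 0.12 (adjusted p = 0.97 with limma). In cerebellum it gave 323 and 291 against 270.2 and 256, a difference of -0.21 ± 0.12 (adjusted p = 1 with limma), and it was the 1 member under an unadjusted p of 0.05 in the F test of tissue differences, which it missed after adjustment. Sox18 in nerve gave 457 and 294 against 462 and 706, a difference of 0.62 ± 0.24 (adjusted p = 0.959 with limma), and its average over tissues was 0.40 ± 0.14 (adjusted p = 0.76 with limma). With both nerve arrays numbered 1 left out, 1 saline and 1 acrylamide nerve array remain, so the spread in that fit comes from cerebellum and cord alone and the lone nerve arrays are assumed to vary like them. Sox18 was then called, at 1.22 ± 0.2 in nerve (adjusted p = 0.0171 with limma) and 0.60 ± 0.09 on average (adjusted p = 0.0175), where the adjusted p lay between 0.0171 and 1 and between 0.0175 and 1 over the alternatives. These were among 381 and 197 probe sets then called in all. Without nerve saline replicate 2 the nerve difference was 0.31, without acrylamide replicate 2 it was 0.32, and without saline or acrylamide replicate 1 it was 0.92 and 0.91. Beside it, endothelial marker sums were 6515 and 5864 with saline and 5124 and 6218 with acrylamide, skeletal muscle sums 4846 and 577 against 1486 and 18918, and Sox7 477 and 305 against 390.1 and 513. Their part in the Sox18 value was not tested.

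In cord, Pbx3 gave 5622 and 5878 with saline and 6717 and 7445 with acrylamide, a difference of 0.30 ± 0.09 (adjusted p = 1 with limma), against 1979 and 2118 and then 2062 and 2117 in cerebellum. Hoxd10 gave 932 and 844 against 693 and 706 (-0.34 ± 0.34), Hoxa11 gave 188 and 172 against 114 and 150.2 (-0.42 ± 0.31), and Hoxd1 gave 192 and 195 against 230 and 237 (0.25 ± 0.27). The groups did not overlap for these, and the standard errors, which pool the spread over tissues, were close in size to the differences. Pou3f1 was at -0.51 ± 0.4, and at 0.0015 without cord saline replicate 2. Schwann cell sums in cord were 42457 and 44994 with saline and 36768 and 34995 with acrylamide, and fibroblast and sheath sums 25889 and 24069.8 against 20643 and 17484; their part in the cord values was not tested. In cerebellum the smallest p-values belonged to Sox17, Sox18 (0.40 ± 0.24), Nkx6-2 (0.38 ± 0.23), Pbx2 (0.21 ± 0.13), Pou2f1 (0.27 ± 0.21) and Meis3 (0.34 ± 0.27).

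Genes that act with these factors were read from lists of related pathways. Retinoic acid sets Hox domains in the embryo: of 19 listed genes of its synthesis, binding and receptors, 17 were on the array, and nerve was called higher than cord for 7 and lower for 2, beside 7.9% and 11.9% of all probe sets. Rxrg, a retinoid receptor, was at 148 ± 12.8, 383 ± 31.6 and 903 ± 131 in cerebellum, cord and nerve, and Aldh1a3, an enzyme of retinoic acid synthesis, at 25.3, 65.1 and 705 (SD, n = 4). Cyp26b1, which breaks retinoic acid down, was at 1735 ± 55.6, 430.2 ± 83.7 and 1096 ± 56.2. Polycomb and trithorax regulators keep Hox genes off or on. Of 28 on the array, cord was called higher than cerebellum for 1 and lower for 4, beside 9.36% and 7.43% of all probe sets, and nerve higher than cord for 2 and lower for 0, beside 7.9% and 11.9%. Eed, a core Polycomb subunit, was at 961, 759.7 and 1778, and Jarid2 at 1672, 780.5 and 579.

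Hedgehog signals pattern the ventral cord, and Dhh is the Schwann cell ligand. Of 11 such genes on the array, nerve was called higher than cord for 4 and lower for 1 (7.9% and 11.9% of all probe sets). Dhh was at 28 ± 29.7, 708 ± 175 and 3431 ± 397 in cerebellum, cord and nerve, and Shh at 9.4, 6 and 189. Hhip, a decoy that binds the ligands, was at 74.7, 197 and 46. Of 43 other positional factors on the array, cord was called higher than cerebellum for 9 and lower for 7 (9.36% and 7.43% of all probe sets), and nerve higher than cord for 4 and lower for 10 (7.9% and 11.9%). Lmo4 rose in the order cerebellum, cord and nerve, at 2057 ± 191, 3936 ± 191 and 6395 ± 249 (SD, n = 4), and Nfib was at 3072, 1279.7 and 2409. With acrylamide, 0 genes of these lists passed limma's adjusted threshold in any tissue. At an unadjusted p under 0.05, 2 of 14 retinoid genes tested in nerve, 1 of 27 chromatin regulators, 0 of 6 hedgehog genes and 1 of 18 other positional factors were higher, beside 2.73% of all probe sets, and 1 chromatin regulator was lower, beside 2.37%. In cord 1 of 19 other positional factors was higher (1.02% of all probe sets) and 0 of 13 retinoid genes, 24 chromatin regulators and 6 hedgehog genes passed, and in cerebellum 0 genes of the lists did.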

How the data were processed

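Each probe set has 1 deposited intensity on each array. GCOS 1.1 is the software named in the submitters' processing notes, and how it was run and scaled is not given in the sources used here. They were analysed as log2(signal + 16), which understates differences of dim genes. Control probe sets (57) were left out. Tissue contrasts used all 31042 other probe sets. Acrylamide contrasts used 21347 above the 40th percentile of tissue means (signal 110), tested in a tissue where the mean exceeded it. Limma 3.58.1 under R 4.3.3 fitted 6 group means (lmFit, eBayes with a trend). Two-sided p-values were adjusted by Benjamini-Hochberg over the probe sets tested in each contrast. For acrylamide these were 18820 in cerebellum, 18967 in cord, 18088 in nerve and 15773 for the average and the F test. The fit was checked on simulated data. Leaving out arrays, scaling, pseudocount, filter and replicate block were tried as alternatives. The members and lists were chosen with earlier results of these data known. Named genes were, per family, up to 8 members above the filter signal; per tissue contrast, the 8 largest called differences each way; for acrylamide, the 6 smallest p-values per tissue and 4 for the average and F test; and 4 per pathway list. Promoters came from RefSeq GRCr8, and 93 of 94 members matched by gene ID. One symbol of the families is not reported here. Probe sets of related family members can share signal.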

Additional observations from a re-analysis of the deposited data

How the results depend on the processing

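The 6 tissue counts of called members stayed within 1.5 times under every alternative run, with 1 exception: members called higher in nerve than in cord (7) were 4 with the saline arrays alone, 12 with no fold minimum and 4 when tested against a 1.5-fold difference. Leaving out 1 array at a time gave 5 to 9 for that count, 35 to 37 and 10 to 10 for cord against cerebellum, 28 to 33 lower in nerve than cord, and 29 to 32 and 18 to 19 for nerve against cerebellum. Median centring moved the median of all probe sets for nerve minus cord from 0.01 to 0.16 and for nerve minus cerebellum from -0.11 to 0.05, and the share of higher calls over all probe sets from 39.8% to 49.5% and from 45.7% to 54.6%; members were then 8 higher and 27 lower, and 32 and 17. For acrylamide, 0 members were called under any alternative except leaving out both nerve arrays numbered 1, which gave 1 in nerve and 1 for the average, both Sox18, from a fit with 1 nerve array in each arm. Values not called changed sign 3 times: Pou3f1 in cord was 0.0015 without saline replicate 2 (-1.02 to 0.0015 over single arrays left out), Hoxa10 in nerve -0.063 without saline replicate 2 (-0.063 to 0.67), and Sox13 in nerve -0.0026 without both nerve arrays numbered 1; the cause was not tested. In the tissue contrasts, Lhx5 (-0.93), Dlx1 (0.76) and Six5 (0.86) fell under the 2-fold minimum with a pseudocount of 64, and Otx2 in nerve minus cerebellum was -0.31 with its second probe set. With the replicate number as a block within each tissue, members called were 35 higher and 11 lower for cord against cerebellum, 7 and 29 for nerve against cord, 30 and 18 for nerve against cerebellum, and 0 for acrylamide. Those counts hide exchanges: 45 of 46, 32 of 36 and 47 of 50 calls were kept. Cord against cerebellum lost Six5 and gained Nkx2-1. Nerve against cord lost Dlx1 (0.92, adjusted p = 0.0577 with limma), Hoxa5, Irx4 and Meis1 and gained Hoxa9, Hoxd4, Nkx2-5 and Otx2, and nerve against cerebellum lost Hoxd4, Pbx4 and Six4 and gained Sox15. With 1 block over all tissues, all these tissue calls were kept. The log2 difference between replicates 2 and 1 was taken per probe set in each group. Between the saline and acrylamide groups these differences correlated at 0.08 in cerebellum, -0.06 in cord and 0.51 in nerve. In nerve, part of the shift thus went with the replicate number. The labels give no pairing, so the block was not used. Signals near or under the filter signal, and 2 arrays per group, limit what can be seen.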
